A study of Mus musculus with 19 samples.

Results

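The genes described here are 10 genes of the integrated stress response and the linked unfolded protein response: Atf4, Ddit3, Xbp1, Trib3, Chac1, Ddit4, Asns, Shmt2, Hspa5 and Edem1. They were chosen as every probe whose gene name in the array files is one of these symbols, which gave 13 of the 41174 probes on the array (3 for Edem1, 2 for Trib3 and 1 for each other gene). All 13 probes passed the filter on dim signals, so the 10 genes are among the 19190 tested, each represented by its brightest probe. RNA came from dissociated mouse hippocampal neurons after 21 days in vitro that received an NMDA receptor antagonist or vehicle for 6 h, and Agilent arrays set the neuron RNA (Cy5, red) against a universal mouse reference RNA (Cy3, green). The groups were 100 µM AP5 (n = 5 arrays), 100 nM NVP (NVP-AAM077, n = 4), 1 µM of the compound titled Ro25 (n = 5) and vehicle (n = 5). AP5 competes with glutamate at NMDA receptors, and NVP does so with some preference for receptors holding GluN2A. The full name given for Ro25 shares its prefix, but not its number, with a known GluN2B antagonist, so which compound it was cannot be told from the labels. The 3 compounds were used at different doses, and differences between them are not at matched doses. No strain, sex or age of the mice is given in the labels used here, and nothing in them says that the replicates were separate cultures, so p-values measure the spread between these arrays, which may be technical.

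The integrated stress response starts when kinases that sense amino acid shortage, misfolded protein in the endoplasmic reticulum, viral RNA or haem lack phosphorylate the translation factor eIF2. Translation of most mRNAs then falls while that of Atf4 rises, and the ATF4 protein switches on genes for amino acid synthesis and transport, for redox balance and for feedback. The unfolded protein response adds other branches, in which XBP1 and ATF6 switch on chaperones and the machinery that clears misfolded protein. In neurons the same pathway is known for its part in memory and in the loss of cells after long stress.

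Values are log2 ratios of red over green on each array, and differences between groups are log2 fold changes from limma, a linear model fitted across all genes, called at a Benjamini-Hochberg adjusted p under 0.05. Median red signal ran from 135.5 to 177.8 per array, and red was well above background on all 19 arrays for 12 of the 13 probes. The Xbp1 spot on vehicle 5 was marked by the extraction software and left out, so Xbp1 rests on 4 vehicle arrays. Red was well above background on 19 arrays for the neuronal markers Map2, Rbfox3 and Snap25 and also for the astrocyte markers Gfap and Aqp4, with Gfap log2 ratios from 3.11 to 6.46. In each group 1 array stood apart by a low mean of 17 astrocyte markers: AP5 5 (2.77), NVP 4 (2.80), Ro25 3 (2.61) and vehicle 3 (2.74), while the other 15 arrays lay between 3.49 and 4.19. In bulk RNA, fewer cells of a type and less RNA per cell cannot be told apart. The 5 slides were tied to treatment, and none held both AP5 and vehicle arrays: AP5 lay on slides 1 and 2 and vehicle on slides 4 and 5. The mean of 16 excitatory neuron markers ran from 2.62 to 2.74 with AP5 and from 2.32 to 2.59 with vehicle, and that of 15 GABAergic markers from 3.27 to 3.44 with AP5 and from 2.90 to 3.21 with vehicle. With AP5, 5 of the 16 excitatory and 6 of the 15 GABAergic markers were called higher, beside 10.8% of all genes. Of 11 microglial markers 3 were called lower, beside 7.24% of all genes. Also called higher were 2 of 14 oligodendrocyte lineage, 1 of 17 astrocyte and 1 of 11 endothelial and fibroblast markers. The part of these markers in the differences of the 10 genes was not tested.

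With AP5, Ddit3 rose and Edem1 and Shmt2 fell, while the other 7 genes did not pass the test. That is 3 of 10 genes called, against 18.1% of all genes tested, with 1 higher (10.8% of all genes were) and 2 lower (7.24% of all genes). With median centring in place of loess, where the median of all genes moved to 0.18, 4 of the 10 were called and all 4 were higher: Ddit3 (0.63), Ddit4 (0.48, adjusted p = 0.0446), Atf4 (0.40, adjusted p = 0.0114) and Xbp1 (0.32, adjusted p = 0.0198). Nearly all genes called in that fit were higher, and the 18.1% is the share of the main fit, not of that one. The share of all genes called with median centring is not given here, so its 4 of 10 is not read as a result about these genes. Relative to its median of all genes, Ddit3 was at 0.45, Ddit4 at 0.30, Atf4 at 0.21 and Xbp1 at 0.14. In the main fit the median log2 fold change of the 10 was 0.08, beside 0.01 for all genes, and 6 were above 0 and 4 below. For 2 of the 10 genes, Ddit3 and Edem1, the ranges of the AP5 and vehicle arrays were separate, as for 11.9% of all genes. With NVP and with Ro25 none of the 10 passed, where 0% of all genes did. The largest difference among the 10 with AP5 was 1.25-fold.

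**Figure D1:**
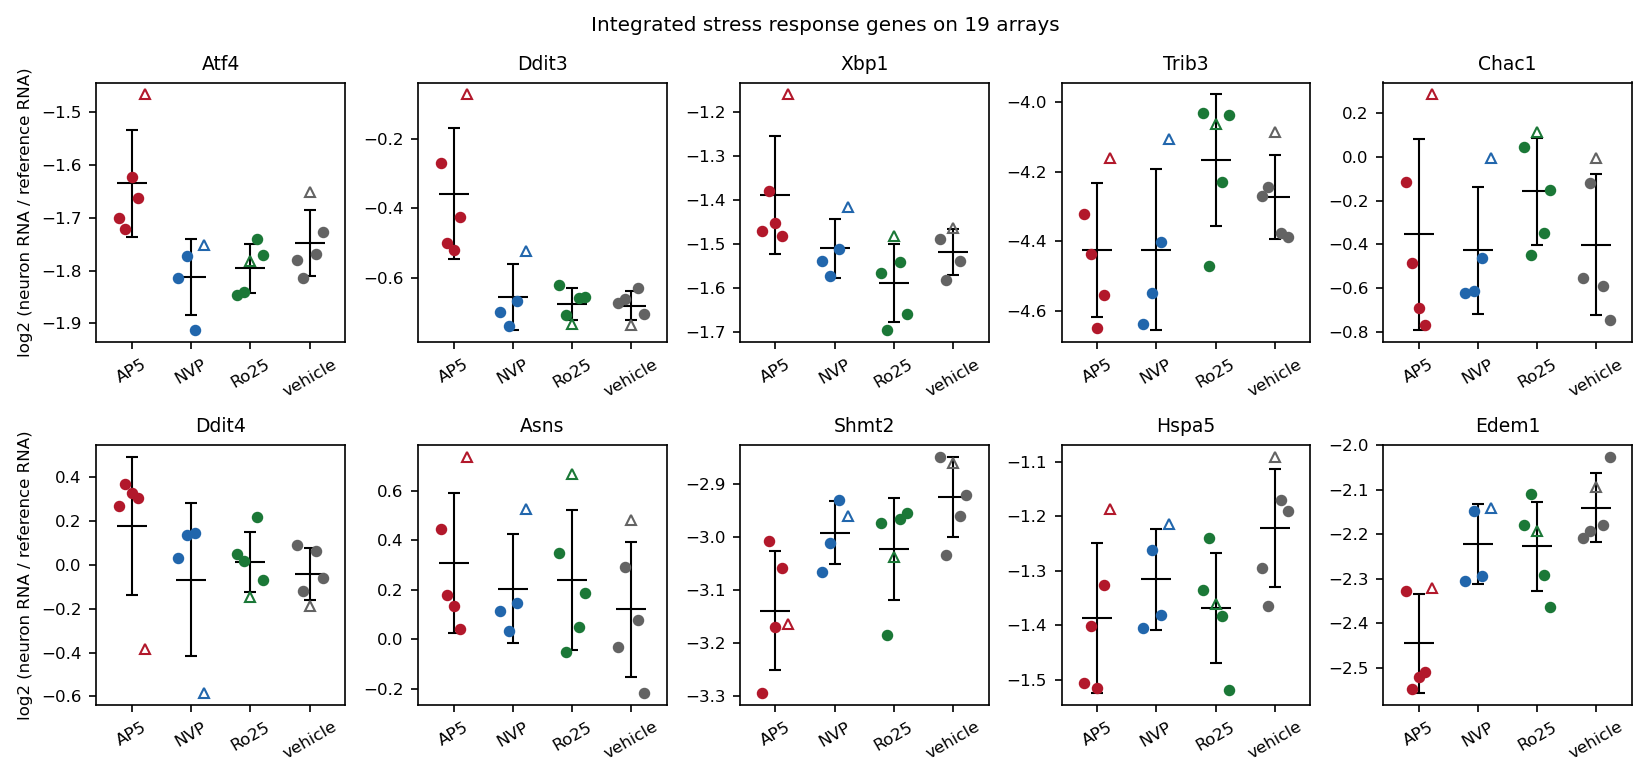
Log2 ratio of neuron over reference RNA for each of the 10 genes (vertical axes, scales differ) on 19 arrays, grouped as AP5, NVP, Ro25 and vehicle. Circles and triangles are single arrays, open triangles mark the array of each group lowest in astrocyte markers, and bars give the mean and SD. For Ddit3 all 5 AP5 arrays (-0.52 to -0.07) lie above all 5 vehicle arrays (-0.73 to -0.63), and for Edem1 all 5 AP5 arrays (-2.55 to -2.32) lie below all 5 vehicle arrays (-2.21 to -2.03).

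Among the transcription factors, Ddit3 encodes CHOP, which ATF4 induces and which is known for driving cell death under lasting stress. Its log2 ratio was -0.27, -0.50, -0.52, -0.42 and -0.07 on the 5 AP5 arrays, against -0.67, -0.66, -0.73, -0.63 and -0.70 on the 5 vehicle arrays. Every AP5 array was above every vehicle array, and AP5 5 and AP5 1 were the highest. The vehicle arrays differed from each other by far less than the AP5 arrays did. Ddit3 averaged -0.36 ± 0.19 with AP5 and -0.68 ± 0.04 with vehicle (SD, n = 5 each), a log2 fold change of 0.32 (SE 0.07, limma adjusted p = 0.00361) which is 1.25-fold (95% interval 1.13 to 1.38). The probe lies at chr10:126698411-126698714 in the mm8 assembly. The 4 NVP arrays gave -0.70, -0.74, -0.67 and -0.52 and the 5 Ro25 arrays -0.62, -0.71, -0.73, -0.66 and -0.66. All of these lay below every AP5 array, but NVP 4 (-0.5215) was nearly level with AP5 3 (-0.5211). On slide 2, AP5 5 was 0.61 above the mean of NVP 1 and NVP 3, and no slide allows this against vehicle. That value rests on AP5 5, which was the highest AP5 array for Ddit3 and the lowest in astrocyte markers (2.77), beside 3.86 on NVP 1 and 4.06 on NVP 3. A fit with slide as a fixed block gave a log2 fold change against vehicle of 0.58. That value links AP5 5 to vehicle 2, through NVP and Ro25 arrays on the same slides, and rests on no other AP5 or vehicle array. With the ratios of all arrays scaled to 1 spread the log2 fold change against vehicle was 0.33 (adjusted p = 0.0546).

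Atf4 encodes the central factor itself, whose output is set mainly by translation, so its mRNA is only a partial readout. The AP5 arrays gave -1.70, -1.72, -1.62, -1.66 and -1.47, against -1.78, -1.81, -1.65, -1.77 and -1.73 with vehicle. The groups overlapped, and AP5 5 was the highest of all arrays. The means were -1.63 ± 0.10 with AP5 and -1.75 ± 0.06 with vehicle (SD, n = 5 each), a log2 fold change of 0.11 that did not pass (SE 0.05, limma adjusted p = 0.143). Xbp1 encodes the factor that the sensor IRE1 activates by splicing its mRNA, and this probe reports total Xbp1 signal at 1 site, not splicing. Its AP5 arrays gave -1.47, -1.38, -1.45, -1.48 and -1.16, against -1.49, -1.58, -1.46 and -1.54 on vehicle 1 to 4. The groups overlapped, with 4 of 5 AP5 arrays between -1.48 and -1.38 and AP5 5 above them. The log2 fold change was 0.13 (SE 0.07, adjusted p = 0.192).

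Asns, Chac1 and Trib3 are textbook targets of ATF4. Asns encodes asparagine synthetase, Chac1 an enzyme that degrades glutathione, and Trib3 a pseudokinase that feeds back on ATF4 and CHOP. Their promoters are shown because they alone among the 10 held the core of the composite site bound by ATF4 with C/EBP partners. The core was searched as TGATGNAA on both strands of the 250 bases before and 50 bases after the RefSeq start site (assembly GRCm38.p6), a window available for all 10 genes. It was found in 3 of the 10 and in 4.51% of 27018 genes. The windows are read on the gene's strand, and capitals mark the match.
Asns, chr6:7693160-7693459, minus strand: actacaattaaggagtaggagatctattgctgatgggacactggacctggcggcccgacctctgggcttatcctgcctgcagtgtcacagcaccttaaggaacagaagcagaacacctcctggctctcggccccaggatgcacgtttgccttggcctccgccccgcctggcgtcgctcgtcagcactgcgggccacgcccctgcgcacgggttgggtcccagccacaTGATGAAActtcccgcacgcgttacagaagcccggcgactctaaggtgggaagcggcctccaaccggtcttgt
Chac1, chr2:119350992-119351291, plus strand: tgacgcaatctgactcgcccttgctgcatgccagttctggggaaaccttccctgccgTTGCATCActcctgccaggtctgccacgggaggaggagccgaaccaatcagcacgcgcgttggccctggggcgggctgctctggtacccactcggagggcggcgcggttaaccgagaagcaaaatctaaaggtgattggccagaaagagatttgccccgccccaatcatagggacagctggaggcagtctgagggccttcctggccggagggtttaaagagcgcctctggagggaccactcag
Trib3, chr2:152344011-152344310, minus strand: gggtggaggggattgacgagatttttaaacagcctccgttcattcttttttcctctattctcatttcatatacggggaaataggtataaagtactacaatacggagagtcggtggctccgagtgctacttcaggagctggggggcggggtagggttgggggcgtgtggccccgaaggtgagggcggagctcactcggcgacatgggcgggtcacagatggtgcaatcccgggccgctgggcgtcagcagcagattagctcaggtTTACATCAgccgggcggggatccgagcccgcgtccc
The match starts at base -23 in Asns, at base -193 in Chac1 and at base 15 in Trib3, counted from the start site as base 1. In Chac1 and Trib3 it lies on the opposite strand, so that the capitals show its reverse complement. The unfolded protein response core TGACGTGG and the cyclic AMP element TGACGTCA were found in none of the 10 windows, against 0.714% and 2.03% of all genes, which says only that these letters are not in these windows.

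None of the 3 genes passed the test with AP5. Asns gave 0.45, 0.18, 0.13, 0.04 and 0.74 on the AP5 arrays, against -0.03, 0.29, 0.48, 0.08 and -0.22 with vehicle. Its spread within each group was wider than the difference between the groups, which was 0.19 (SE 0.16, limma adjusted p = 0.446). Chac1 gave -0.12, -0.48, -0.69, -0.77 and 0.28 with AP5, against -0.55, -0.12, -0.01, -0.59 and -0.75 with vehicle. The groups overlapped, with AP5 5 above all vehicle arrays. The log2 fold change was 0.05 (SE 0.19, limma adjusted p = 0.901), with a 95% interval from -0.35 to 0.45. Trib3 gave -4.32, -4.44, -4.65, -4.55 and -4.16 with AP5, against -4.27, -4.24, -4.09, -4.38 and -4.39 with vehicle. Its 2 probes gave log2 fold changes of -0.15 and -0.20, and neither was called in a fit over all probes (adjusted p = 0.368 and 0.164), in which 17% of 28622 probes were.

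Across arrays, Asns and Chac1 varied together within every group. After subtracting group means, and leaving out the 4 arrays low in astrocyte markers, Pearson's r over the other 15 arrays was 0.952 for Asns with Chac1 (Spearman's rho 0.918), 0.789 for Chac1 with Trib3 (rho 0.886) and 0.714 for Asns with Trib3 (rho 0.793). Over 13 arrays, without the pair farthest from the median of either gene, Asns with Chac1 gave 0.913. These are descriptions of 15 arrays that share slides and a common reference RNA, chosen after the values were seen from the 45 pairs of the 10 genes, whose median r was -0.03. Pairs with genes that lack the ATF4 core in the windows searched also reached such values, and sites outside these windows were not searched. Ddit3 gave 0.647 with Asns and 0.639 with Chac1, and Xbp1 with Ddit4 gave 0.714 (over 14 arrays, but -0.665 over all 19). Whether the core has a part in how these genes vary was not tested. Ranked by r with Asns among 19189 genes, Chac1 stood at 17, Trib3 at 2290 and Ddit3 at 3163 (r 0.647). For Atf4 mRNA the sign depended on the 4 arrays low in astrocyte markers: r was -0.479 with Asns and -0.538 with Chac1 over the 15 arrays, but 0.412 and 0.406 over all 19. For Asns with Chac1, r over all 19 was 0.951. The arrays highest in Asns were AP5 5 (0.74), Ro25 3 (0.67), NVP 4 (0.52) and vehicle 3 (0.48), the 4 low in astrocyte markers, followed by AP5 1 (0.45), Ro25 1 (0.35) and vehicle 2 (0.29). They come from all 4 groups and all 5 slides.

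**Figure D2:**
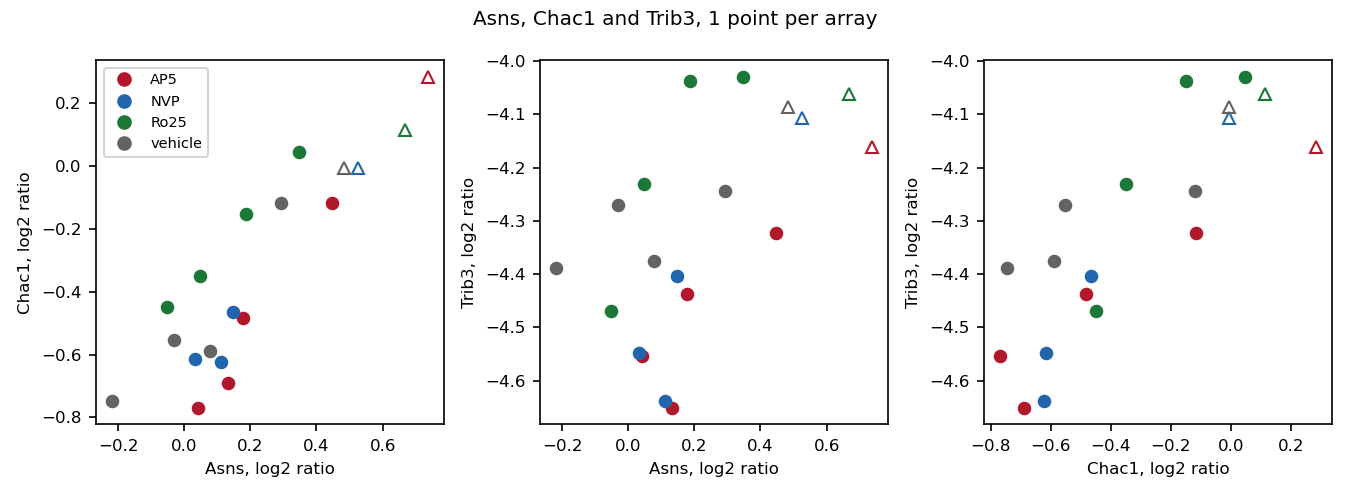
Log2 ratios of Asns, Chac1 and Trib3 against each other, 1 point per array, coloured by group; open triangles are the arrays of each group lowest in astrocyte markers. In the left panel Chac1 follows Asns across all 4 groups, from arrays at about the lowest Asns (vehicle 5, -0.22) to the highest (AP5 5, 0.74), where Chac1 is -0.75 and 0.28.

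Other genes of the pathway were set against Asns in the same way, counting those with an r over 0.6. Among all genes 19.7% passed over the 15 arrays and 21% over all 19, so many genes outside the pathway followed Asns as closely. Of 16 other transcription factor and feedback genes, 8 passed over the 15 arrays and 5 over all 19, with 4 in both. The stress genes Sesn2 (0.867 over the 15 arrays and 0.64 over all 19) and Cebpg (0.785 and 0.847) passed in both, whereas Nfe2l1 had 0.882 over the 15 arrays but 0.00753 over all 19. Of 15 amino acid synthesis and one-carbon genes 5 passed over the 15 arrays and 4 over all 19, of 10 amino acid transporters 1 and 3, and of 20 cytosolic tRNA synthetases and their exporter 6 and 9, led by Tars (0.937 and 0.973). In the endoplasmic reticulum, 3 of 19 chaperone and folding genes passed over the 15 arrays and 6 over all 19, and 5 of 18 degradation and translocation genes did in each case, among them Edem3 (0.873 and 0.924). Of 11 cytosolic heat shock genes 3 passed in each case, of 15 genes of the eIF2 kinases and machinery 0 and 2, and of 9 unfolded protein response sensors 0 and 0. The names were chosen after their values were seen.

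Ddit4 encodes REDD1, an inhibitor of the growth kinase complex mTORC1 that ATF4 and other stress factors induce. Its log2 ratio was 0.27, 0.37, 0.33, 0.30 and -0.38 on the AP5 arrays, against 0.09, -0.12, -0.19, 0.06 and -0.06 with vehicle. AP5 1 to 4 lay above every vehicle array, and AP5 5 lay below them all. The means were 0.18 ± 0.32 with AP5 and -0.04 ± 0.12 with vehicle (SD, n = 5 each), a log2 fold change of 0.22 that did not pass (SE 0.14, limma adjusted p = 0.31). Without AP5 5 it was 0.36 (adjusted p = 0.0434), and without the array of each group lowest in astrocyte markers, a setting added after seeing the data, it was 0.32 (adjusted p = 0.00412).

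Shmt2 encodes the mitochondrial serine hydroxymethyltransferase, which feeds one-carbon units into folate metabolism. The AP5 arrays gave -3.29, -3.01, -3.17, -3.06 and -3.16, against -2.85, -3.03, -2.86, -2.96 and -2.92 with vehicle. The groups overlapped at AP5 2 and vehicle 2. Shmt2 fell by 0.21 on the log2 scale with AP5 (SE 0.06, limma adjusted p = 0.0173), with means of -3.14 ± 0.11 with AP5 and -2.92 ± 0.08 with vehicle (SD, n = 5 each). More of that difference lay in the reference channel than in the neuron RNA: the green signal alone was 0.12 higher on AP5 arrays (adjusted p = 0.0439), while the red signal alone differed by -0.05 (adjusted p = 0.751). The call also ended without AP5 1 (adjusted p = 0.0537), and median centring turned the value to 0.06, where the median of all genes was 0.18.

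In endoplasmic reticulum quality control, Hspa5 encodes the chaperone BiP, the best known target of the unfolded protein response. Its window is shown because it was the only one of the 10 with the endoplasmic reticulum stress response element, searched on both strands as CCAAT and CCACG with any 9 bases between them, and it was found in 0.137% of 27018 genes. Capitals mark the match, which starts at base -65.
Hspa5, chr2:34771840-34772139, plus strand: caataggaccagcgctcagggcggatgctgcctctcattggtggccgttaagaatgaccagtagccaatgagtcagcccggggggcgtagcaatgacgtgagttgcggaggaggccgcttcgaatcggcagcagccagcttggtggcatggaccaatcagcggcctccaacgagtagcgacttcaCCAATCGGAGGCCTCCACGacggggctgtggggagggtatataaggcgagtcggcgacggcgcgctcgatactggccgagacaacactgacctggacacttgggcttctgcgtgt
Its AP5 arrays gave -1.51, -1.40, -1.52, -1.33 and -1.19, against -1.29, -1.36, -1.09, -1.17 and -1.19 with vehicle. The groups overlapped, with 3 AP5 arrays below every vehicle array. The log2 fold change was -0.17 (SE 0.07, limma adjusted p = 0.116), and the green signal alone was 0.10 higher on AP5 arrays. Without AP5 5 the log2 fold change was -0.22 (adjusted p = 0.0371).

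Edem1 encodes a lectin-like protein that hands misfolded glycoproteins over for degradation, and it is a target of XBP1. The AP5 arrays gave -2.33, -2.55, -2.52, -2.51 and -2.32, against -2.21, -2.19, -2.09, -2.18 and -2.03 with vehicle. Every AP5 array was below every vehicle array. Edem1 fell by 0.31 on the log2 scale (SE 0.06, limma adjusted p = 0.00239), with means of -2.44 ± 0.11 with AP5 and -2.14 ± 0.08 with vehicle (SD, n = 5 each), or 0.81 times the vehicle level. Its 3 probes fell by 0.31, 0.19 and 0.25 and each was called in the fit over all probes (adjusted p = 0.00262, 0.0275 and 0.0345), and they lie on chromosome 6 between 108820045 and 108824762 in mm8. The reference channel differed by only 0.03 and the red signal alone by -0.25 (adjusted p = 0.0455). The call ended with marked spots left in (adjusted p = 0.0553), with 1 spread (adjusted p = 0.508) and with median centring, where the value was -0.046 (adjusted p = 0.776). On slide 2, AP5 5 differed from the mean of NVP 1 and NVP 3 by -0.02. A fixed slide block gave 0.04 against vehicle, a value for which AP5 5 and vehicle 2 are the only AP5 and vehicle arrays used.

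**Figure D3:**
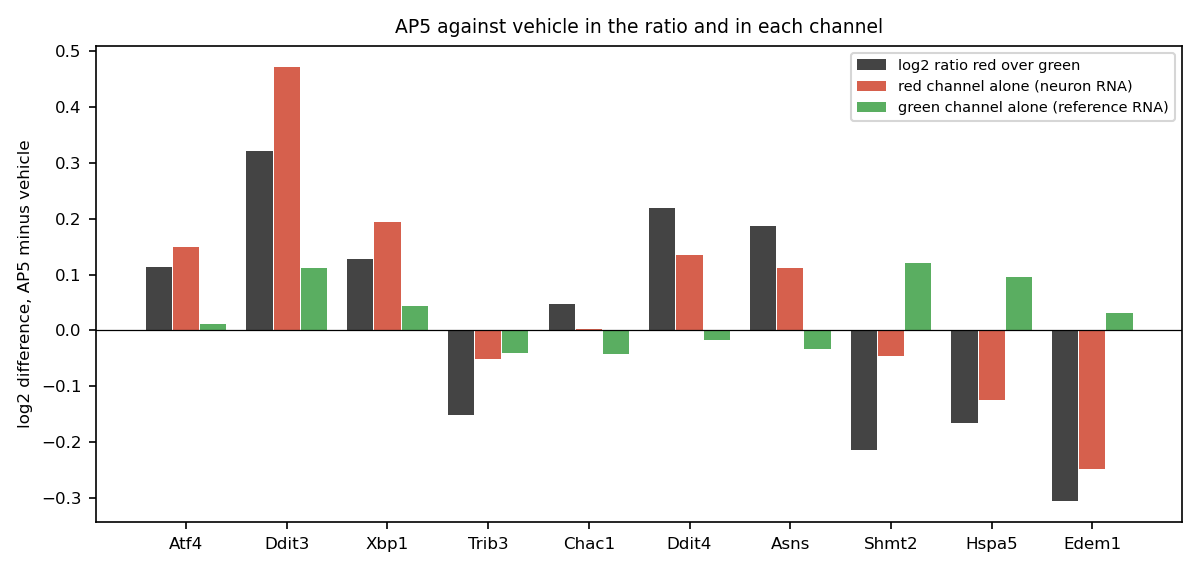
Log2 difference of AP5 minus vehicle for each gene, in the red over green ratio used for the tests (dark bars) and in the red (neuron RNA) and green (reference RNA) channels alone, each quantile-normalized between arrays. For Ddit3 the red difference (0.47) exceeds the green one (0.11), for Edem1 the red one (-0.25) carries nearly all of the ratio, and for Shmt2 the green difference (0.12) exceeds the red one (-0.05).

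In the reference channel alone, 1068 genes were called between AP5 and vehicle arrays, although the same reference RNA was on all of them. Among the 10 genes only Shmt2 was called there, and Ddit3 was 0.11 higher on AP5 arrays (adjusted p = 0.107). For Ddit3 both channels were higher on AP5 arrays, red alone by 0.47 and green alone by 0.11. AP5 and vehicle shared no slide, and the part of slide or spot in these differences was not tested.

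With NVP and with Ro25 none of the 10 genes differed detectably from vehicle. Against vehicle, log2 fold changes ran from -0.15 (Trib3) to 0.08 (Asns) with NVP and from -0.15 (Hspa5) to 0.24 (Chac1) with Ro25. The lowest limma adjusted p-values among the 10 were 0.84 with NVP and 0.822 with Ro25, and no gene of the array passed in either comparison, although 1589 genes with NVP and 1181 with Ro25 had an unadjusted p under 0.05. For Ddit3 the 95% interval ran from -0.13 to 0.18 with NVP and from -0.14 to 0.15 with Ro25, and for Edem1 from -0.22 to 0.06 with NVP and from -0.22 to 0.04 with Ro25. For Chac1 the interval with Ro25 reached 0.65. On slide 4, which held 3 Ro25 arrays and vehicle 2, all 10 genes differed by between -0.04 and 0.05.

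**Figure D4:**
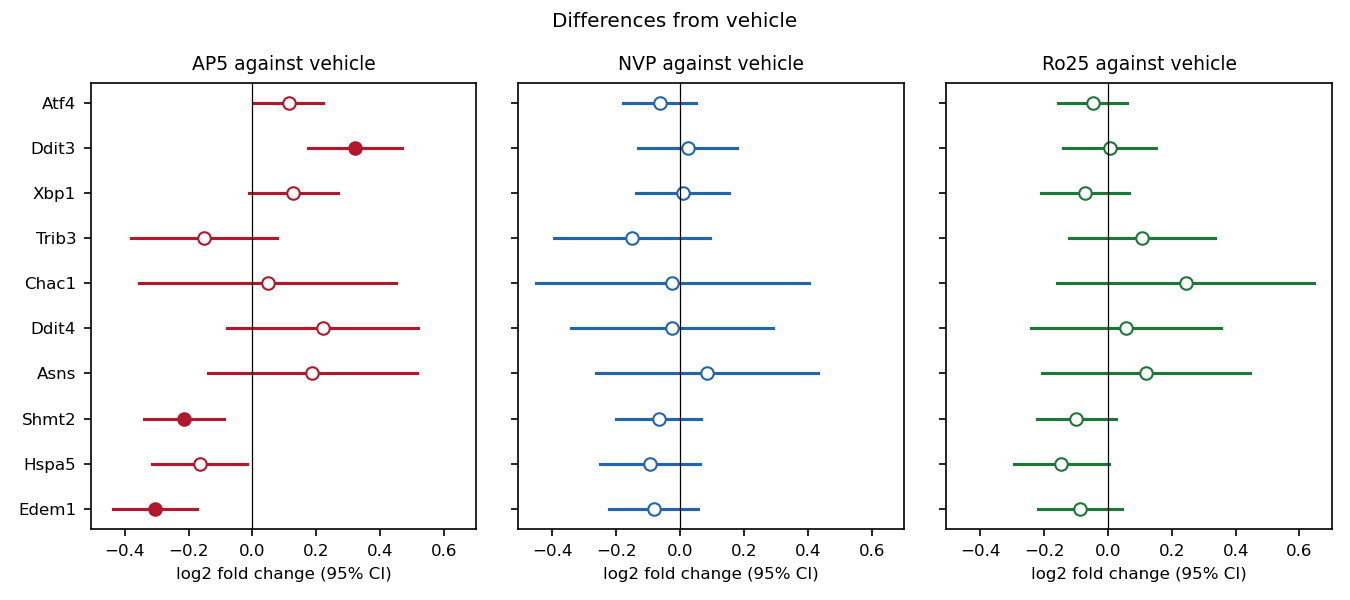
Log2 fold change against vehicle for the 10 genes (rows) with AP5, NVP and Ro25 (panels), with 95% confidence intervals; filled points have an adjusted p under 0.05. Ddit3 (0.32), Shmt2 (-0.21) and Edem1 (-0.31) are filled with AP5, and no point is filled with NVP or Ro25.

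The difference between antagonists was tested directly, at their differing doses. Ddit3 was 0.30 higher with AP5 than with NVP (limma adjusted p = 0.0247) and 0.32 higher with AP5 than with Ro25 (adjusted p = 0.0088). It was the only one of the 10 called between AP5 and NVP, where 4.26% of all genes were. Between AP5 and Ro25, Edem1 also passed, lower by 0.22 with AP5 (adjusted p = 0.0455), where 6.06% of all genes passed. The other Edem1 probes were at -0.089 and -0.20 there, and neither was called in the limma fit over all probes (adjusted p = 0.449 and 0.179). The Ddit3 call against NVP ended without AP5 1, NVP 1, NVP 2 or NVP 3 (adjusted p from 0.0638 to 0.0984), and the Edem1 call against Ro25 ended on leaving out any of 13 of the 19 arrays in turn (adjusted p from 0.0516 to 0.124). Atf4 was 0.18 higher with AP5 than with NVP and 0.16 higher than with Ro25, and its arrays did not overlap in either (as for 8.1% and 6.82% of all genes), but it missed the threshold (adjusted p = 0.0804 and 0.0769). Xbp1 also missed it, 0.20 higher with AP5 than with Ro25 (adjusted p = 0.0673). So did Edem1, 0.22 lower with AP5 than with NVP without overlap (adjusted p = 0.0687), while its other probes were at -0.088 and -0.082. No gene passed between NVP and Ro25 (0% of all genes, with 300 at an unadjusted p under 0.05), and among the 10 the lowest p there was that of Trib3, -0.26 for NVP minus Ro25 (adjusted p = 1), while its other probe gave 0.0067. These comparisons share the AP5 arrays with each other and with the one against vehicle, so they are not independent of it.

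The array of each group lowest in astrocyte markers stood apart for several of the 10 genes. Asns, Chac1 and Xbp1 were at their group's highest on that array in 4 of 4 groups, and Ddit4 was at its lowest in 4 of 4. Atf4, Trib3 and Hspa5 were highest in 3 of 4, whereas Shmt2 lay inside its group's range in all 4. Ddit3 was highest in 2 and lowest in 2: AP5 5 (-0.07) and NVP 4 (-0.52) topped their groups, while Ro25 3 (-0.73) and vehicle 3 (-0.73) were the lowest of theirs. Without these 4 arrays Ddit3 still rose with AP5, by 0.24 (adjusted p = 0.0103), and Edem1 fell by 0.32 (adjusted p = 0.00619), while Shmt2 at -0.19 no longer passed (adjusted p = 0.0861). With the astrocyte marker mean as a covariate 6 of the 10 were called with AP5, adding Asns (0.26, adjusted p = 0.0322), Atf4 (0.13, adjusted p = 0.0403) and Xbp1 (0.15, adjusted p = 0.0318), in a fit that called 5587 of all genes.

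**Figure D5:**
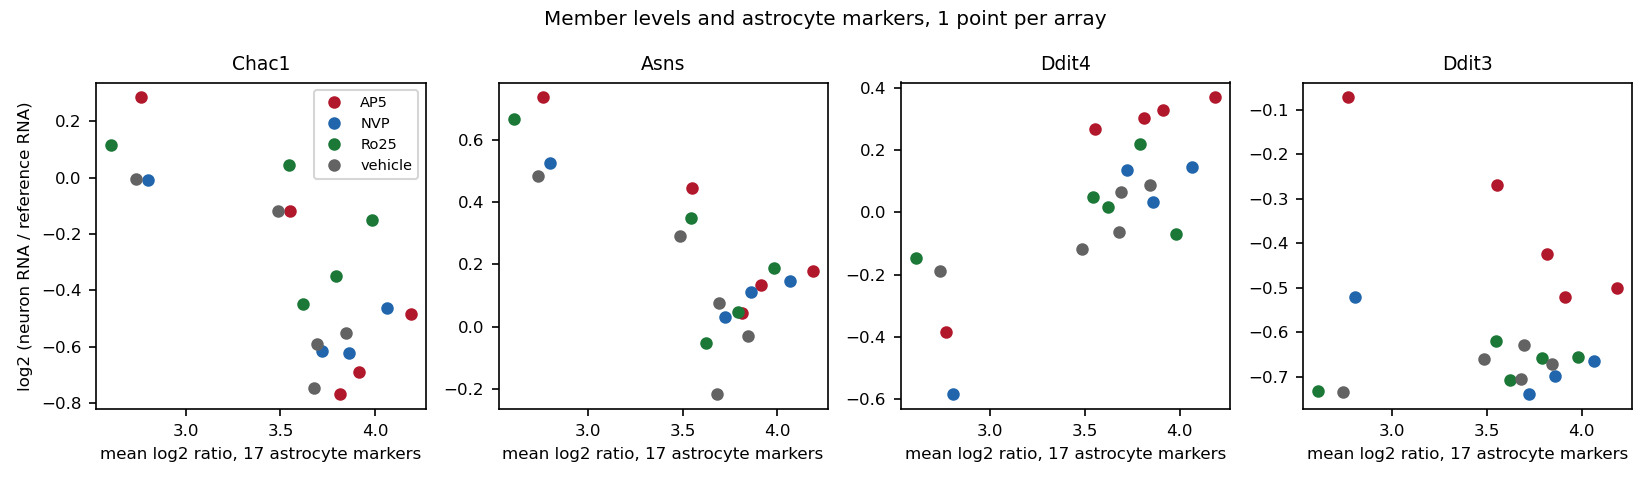
Log2 ratio of Chac1, Asns, Ddit4 and Ddit3 (vertical axes) against the mean log2 ratio of 17 astrocyte markers (horizontal axis), 1 point per array, coloured by group. The 4 arrays at 2.61 to 2.80 carry the highest Asns and the lowest Ddit4 of their groups, and the AP5 arrays lie above the vehicle arrays for Ddit3 at low and at high marker levels.

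The wider pathway was read with AP5 from lists of further genes, beside all genes, of which 18.1% were called, 10.8% higher and 7.24% lower. Of 16 other transcription factor and feedback genes 2 rose and 3 fell (31.2% called, median -0.12). Those that rose were Nfe2l1, a factor for proteasome genes (0.29, limma adjusted p = 5.86e-04), and the stress factor Atf3 (0.67, adjusted p = 0.0034). Those that fell were Jdp2, a repressor of the AP-1 family (-0.37), the lipoprotein receptor gene Vldlr (-0.37) and Stc2 (-0.24). The Stc2 value was 0.0039 in the red channel alone. Atf3 and Stc2 are named to complete the count, after their values were seen.

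Of 15 amino acid synthesis and one-carbon genes, 4 fell and none rose (26.7% called, beside 18.1% of all genes, median 0.00): the mitochondrial folate enzyme genes Mthfd2 (-0.33), Aldh1l2 (-0.28) and Mthfd1l (-0.19), and Aldh18a1, of proline synthesis (-0.22). Mthfd1l was named after its value was seen. Mthfd2, Aldh1l2 and Mthfd1l act beside Shmt2 in the mitochondrial folate pathway. In the red channel alone none of the 4 was called: Mthfd2 was at -0.26 (adjusted p = 0.291), Aldh1l2 at -0.16 (adjusted p = 0.174), Mthfd1l at -0.15 (adjusted p = 0.331) and Aldh18a1 at -0.12 (adjusted p = 0.322). Aldh18a1 and Mthfd1l turned to 0.01 and 0.07 under median centring, and Aldh1l2, Mthfd2 and Mthfd1l turned to 0.01, 0.11 and 0.07 with slide as a fixed block. Of 10 measured amino acid transporters 1 fell, Slc38a2 (-0.26), whose 4 probes ran from -0.26 to 0.07. Of 20 tRNA synthetase genes and their exporter 1 rose and 3 fell (20% called, near the 18.1% of all genes). Gars (-0.30) and Kars (-0.17) were among those that fell, and the rise of Aars (0.21) came from 1 probe while its other probe gave -0.26.

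Among the upstream kinases and the eIF2 machinery 2 of 15 rose and 1 fell, which is 20% called, near the 18.1% of all genes. Eif2ak3, which encodes the endoplasmic reticulum kinase PERK, rose (0.29, adjusted p = 0.0397), as did Eif2b1, a subunit of the exchange factor eIF2B (0.20). Eif2ak4, which encodes the amino acid sensor GCN2, fell (-0.24). Of 9 unfolded protein response sensor genes, Creb3l1 fell (-0.31) and Mbtps1, the site-1 protease that cleaves ATF6, was called higher (0.36), though its 3 probes ran from -0.20 to 0.36.

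Of 19 chaperone and folding genes of the endoplasmic reticulum 2 fell and none rose (10.5% called, below the 18.1% of all genes), the disulfide enzyme genes Pdia6 (-0.34) and Ero1a (-0.21). Pdia6 was at -0.22 with the mean of its probes, and Ero1a was at -0.048 with processed signals (adjusted p = 0.646) and -0.080 in the red channel alone (adjusted p = 0.508). Of 18 genes of degradation and translocation 2 rose and none fell (11.1% called), Syvn1, the ubiquitin ligase HRD1 (0.25), and Derl1 (0.21). With the mean of its probes Syvn1 was at 0.11 (adjusted p = 0.117). Of 11 cytosolic heat shock genes 3 rose (27.3% called): Hspa1b (0.25, on 3 AP5 and 4 vehicle arrays), Hsp90aa1 (0.23, on 4 AP5 and 5 vehicle arrays) and Hsph1 (0.17). In the red channel alone they were at 0.085, 0.031 and 0.086 (adjusted p = 0.671, 0.812 and 0.304), and none of the 3 was called with processed signals or with marked spots left in. With the mean of its probes Hspa1b was at 0.098 (adjusted p = 0.712). Of the 11 rises and 14 falls named in these lists, 7 and 3 were called in the red channel alone, 6 and 7 with processed signals, and 11 and 0 with median centring. A fit that held slide fixed compared AP5 with vehicle through AP5 5 and vehicle 2 alone, so calls in it are not counted here. Median centring moved the median of all genes to 0.18. Relative to that median the 14 falls lay between -0.37 (Creb3l1) and -0.085 (Kars), and the 11 rises between 0.26 (Hsph1) and 0.81 (Atf3). These relative values were not tested. The calls of Mthfd2, Mthfd1l, Aldh18a1, Stc2, Eif2ak3, Hspa1b, Hsp90aa1 and Hsph1 ended on leaving out any of between 4 and 14 single arrays (adjusted p from 0.0516 to 0.133). With NVP and with Ro25 no gene of any of these lists was called.

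The genes that varied most like each anchor gene over the 19 arrays, after subtracting group means, were named as a description. For Ddit3 they were 0710001D07Rik (r = 0.87), Ndufa12, Zscan20, Fam241a and Sugp1 (r = 0.85). For Atf4 they were Bud31 (r = 0.86), Rbp7, Psmd12, the transcript TC1677080 and Pcmt1 (r = 0.80). For Hspa5 they were Ak6 (r = 0.85), Ranbp9, Spred2, Cops2 and Eif4g2 (r = 0.83). None of these 15 is among the 10 genes, and the arrays share slides and the 4 that stand apart in astrocyte markers.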

How the data were processed

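Each array file held, as deposited, the scanner intensity of every spot in both channels and a log10 ratio of red over green that the extraction software had background-subtracted and dye-normalized, per the file headers (Feature Extraction 9.5.3.1, while the submitters' processing notes name version 11.0). The authors' table held log2 values for 20674 probes, which matched log2 red over green (r 0.9986 to 0.9998), with its centring and filtering not given in the sources used here.

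Spots marked as outliers or not uniform were dropped (117 to 266 per array, 1642 on vehicle 5), background was corrected by normexp (offset 50), and log2 ratios were normalized by loess within arrays. Probes needed red well above background on 4 or more arrays, and a gene took its brightest kept probe. limma 3.58.1 in R 4.3.3 (packages statmod 1.5.0 and data.table, release 1.17.8) fitted group means over 19 arrays, with two-sided tests, Benjamini-Hochberg adjustment per comparison and a threshold of 0.05, and the fit was tested on simulated data. The median SE of a log2 fold change was 0.08, and the number of arrays limits the precision. Alternatives covered background, normalization, channel, filters, probe choice, slide, replicate number, astrocyte markers, the authors' table and each array left out. Genes were named by accession, symbol or synonym through a RefSeq table (GRCm38.p6), which also gave the promoters. All 10 genes are named, with up to 3 called genes per list by smallest adjusted p, and the 5 genes most like Ddit3, Atf4 and Hspa5. The members and lists were chosen with earlier results of these data known. Figures were drawn with matplotlib 3.10.9.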

Additional observations from a re-analysis of the deposited data

Results flagged for a closer look

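Ddit4 on AP5 5 was -0.38, far below the other 4 AP5 arrays, which lay between 0.27 and 0.37. Ddit4 on NVP 4 was -0.58, far below the other 3 NVP arrays, which lay between 0.03 and 0.15. In both cases the gap to the nearest array took up so much of the group's range that it passed Dixon's 95% critical value. Of 40 groups of values tested in this way (10 genes in 4 groups) these were the 2 that passed. That is about as many as chance alone gives at 1 in 20. Both arrays are the lowest of their group in astrocyte markers (2.77 and 2.80), and the part of that in the Ddit4 values was not tested.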

How the results depend on the processing

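With AP5 the half-width of the 95% interval ran from 0.11 (Atf4) to 0.40 (Chac1) among the 10 genes on the log2 scale. Slide and treatment were nearly tied. The Ddit3 rise with AP5 kept its direction under all 14 alternatives (0.24 to 0.63) and each array left out (0.25 to 0.36), and lost its call under 2, scaling to 1 spread and slide as a fixed block. Edem1 lost its call under 3 alternatives and reversed under 1, and Shmt2 lost it under 6 and reversed under 1. Causes were not tested. Slide as a fixed block compares AP5 with vehicle only through AP5 5 and vehicle 2. Its value for Ddit3 and its reversal for Edem1 therefore rest on 1 array of each group. In the results for NVP and Ro25 no gene of the 10 was called under any alternative.

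Genes called between AP5 and vehicle (3468) numbered 863 with marked spots left in, 959 with 1 spread, 2122 with only the red channel, 9 with slide fixed and 5587 with the astrocyte covariate. Those between AP5 and NVP (817) numbered 276 with marked spots left in, 273 with 1 spread, 222 with median centring, 191 with slide fixed, 530 with the replicate block and 1664 with the covariate. Those between AP5 and Ro25 (1163) numbered 436 with marked spots left in, 485 with 1 spread, 358 with median centring, 22 with slide fixed and 2199 with the covariate. Ro25 against vehicle gave 2 genes in the red channel, 2 with the covariate and 1 without the 4 arrays low in astrocyte markers. Of the 10 genes with AP5 against vehicle, 1 was called with marked spots left in, 0 with 1 spread, 0 with slide fixed and 6 with the covariate, and with median centring 4, all higher. Against NVP 0 were called with marked spots, 1 spread, median centring and the replicate block, 2 with slide fixed or random and 3 with the covariate. Against Ro25 1 was called with processed signals, marked spots, the red channel, no dim filter, probe means, the replicate block and the authors' table, 0 with 1 spread, median centring and slide fixed, and 4 with the covariate and slide random. The fit with slide random used a slide correlation of -0.078. For most of these alternative fits the counts among the 10 have no share of all genes beside them here. None of these counts is read as a result about the 10. Leaving out single arrays gave 2613 to 3491 genes (2 to 5 of the 10) for AP5 against vehicle, 524 to 831 (0 to 2) against NVP (524 without NVP 2 and 542 without NVP 1), 869 to 1166 (1 to 2) against Ro25, 0 to 4 for NVP and 0 to 2 for Ro25 against vehicle.

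Median centring moved the median of all genes to 0.18 (AP5), 0.20 (NVP) and 0.17 (Ro25) and the share of higher calls with AP5 to 94.8%, beside 59.9% (68% with processed signals), and there AP5 values turned to 0.095 (Trib3), 0.058 (Shmt2), 0.10 (Hspa5), 0.012 (Aldh18a1), 0.014 (Slc38a2), 0.097 (Kars), 0.073 (Mthfd1l) and 0.050 (Ero1a). Relative to that median, Edem1 was at -0.23, Shmt2 at -0.12 and Ddit3 at 0.45. NVP values turned to 0.18 (Atf4), 0.089 (Trib3), 0.22 (Chac1), 0.20 (Ddit4), 0.18 (Shmt2), 0.14 (Hspa5) and 0.16 (Edem1), and Ro25 values to 0.17 (Atf4), 0.065 (Xbp1), 0.12 (Shmt2), 0.090 (Hspa5) and 0.13 (Edem1). With slide fixed, AP5 values turned to 0.22 (Trib3), -0.78 (Ddit4), 0.32 (Hspa5), 0.040 (Edem1), 0.012 (Aldh1l2), 0.11 (Mthfd2), 0.072 (Mthfd1l) and 0.061 (Slc38a2). NVP values there turned to 0.049 (Atf4), -0.031 (Ddit3), 0.11 (Hspa5) and 0.062 (Edem1), Ro25 values to 0.017 (Atf4), -0.039 (Ddit3), -0.043 (Chac1) and -0.024 (Asns), and Edem1 between AP5 and Ro25 to 0.069. Aars and Mbtps1 turned to -0.025 and -0.0081 with probe means and to -0.26 and -0.23 in the authors' table, and Stc2 to 0.0039 in red alone. The other turns, all of genes not called, were with 1 spread Xbp1 (-0.070) and Ddit4 (0.0028) for NVP and Atf4 (0.065), Shmt2 (0.083) and Edem1 (0.048) for Ro25. With processed signals they were Xbp1 (-0.020), Shmt2 (0.0018) and Hspa5 (0.025) for NVP, with marked spots Ddit4 (-0.011) and Shmt2 (0.0018) for Ro25, and in red alone Xbp1 (0.00032) for Ro25. Chac1 for NVP turned to 0.038 with the covariate, 0.015 with slide random and 0.00058 with the replicate block. Without the 4 arrays low in astrocyte markers, Chac1 was at -0.013 with AP5, and for NVP Ddit3 at -0.035, Xbp1 at -0.0053 and Ddit4 at 0.11. Leaving out single arrays ran from -0.11 to 0.15 for Chac1 with AP5, and for NVP from -0.021 to 0.051 (Ddit3), -0.023 to 0.029 (Xbp1), -0.16 to 0.074 (Chac1), -0.096 to 0.15 (Ddit4) and -0.023 to 0.17 (Asns), and for Ro25 from -0.0086 to 0.020 (Ddit3).

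Replicate numbers recur across groups but do not pair the arrays: the correlations of deviations between 27 same-numbered pairs ran from -0.624 to 0.764, and 8 exceeded 0.1. With the replicate block 3051 genes and 3 of the 10 were called for AP5 against vehicle.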
